A study of Mus musculus with 4 samples.

Results

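The genes described here encode the enzymes of glycolysis, the transporters that bring glucose in and carry lactate out, and the enzymes of the pentose phosphate pathway. They were 34 gene symbols chosen by name, of 24441 in the tables, and each was listed in the tables of all 4 libraries at a single locus. The RNA came from Langerhans cells sorted from epidermal cell suspensions of mouse skin, and the level of each gene was given as FPKM, which relates fragments to transcript length and to the number of mapped fragments, a scale on which genes of different length can be compared. Tfam cKO mice carried a CD11c-Cre transgene and floxed alleles of Tfam (CD11cCre Tfam fl/fl), so that Cre is made wherever the CD11c promoter is active, which is not limited to Langerhans cells, and WT mice were wild type. Both groups were 4 weeks old, with 2 libraries each, numbered 1 and 2. The labels do not name the animals behind a library, so p-values measure the spread between these libraries only. Of the 34 genes, 32 averaged 1 FPKM or more across the libraries and were tested, while Hk3 and Eno2 lay below that level.

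Glycolysis splits glucose into pyruvate in the cytosol and yields ATP and NADH without the mitochondrion. Lactate dehydrogenase turns pyruvate into lactate and so returns NAD+, and monocarboxylate transporters carry the lactate across the plasma membrane. The pentose phosphate pathway branches off at glucose-6-phosphate and makes NADPH and ribose phosphate. TFAM packages mitochondrial DNA and takes part in its transcription. This DNA encodes core subunits of the respiratory chain, and dendritic cells are known to draw on glycolysis when activated.

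The libraries were checked first. Tfam was listed at 1.65 and 1.53 FPKM in Tfam cKO and at 3.17 and 1.61 FPKM in WT, so that WT 2 was close to both Tfam cKO values. The groups overlapped (log2 fold change −0.35 ± 0.25 SE, adjusted p = 0.90 in limma), so these values do not establish the deletion in these libraries. A value for the whole gene can include fragments from outside the deleted part, which was not tested. Why WT 2 was low was not tested either, and the group names below follow the labels. Langerhans cell markers were abundant, and their summed level over 10 genes was 28501 and 22263 FPKM in Tfam cKO and 24470 and 24819 FPKM in WT. Cd207, the gene for langerin, was at 1528 and 1374 FPKM in Tfam cKO and at 2098 and 1495 FPKM in WT, with overlapping groups. Of the 10, Cdh1 and Mfge8 stood higher and Itgax and Ptprc lower in Tfam cKO without overlap between the groups. Of all 10910 tested genes, 25.4% stood higher and 9.75% lower in this way. Keratinocyte markers were abundant as well, all 13 of 13 being detected, with Krt14 at 3587 and 3265 FPKM in Tfam cKO and at 3538 and 2362 FPKM in WT. Their summed level was 16084 and 14876 FPKM in Tfam cKO and 16273 and 11167 FPKM in WT, lowest in WT 2. Of the 13, 4 stood higher in Tfam cKO without overlap (Sfn, Dsp, Dsg3 and Col17a1) and 1 lower (Krt1). Sfn was at 2231 and 1833 FPKM in Tfam cKO and at 1593 and 1353 FPKM in WT. The summed level of 7 dermal macrophage markers was 128 and 74.2 FPKM in Tfam cKO and 26.1 and 35.3 FPKM in WT, with C1qa, C1qb and C1qc making up nearly all of it. Mrc1 reached 0.130 FPKM at most, Lyve1 and F13a1 were lower still, and Cd163 was at 0 in all. All 4 mast cell markers were at 0. The summed level of the 8 dendritic epidermal T cell markers in the tables was 241 and 389 FPKM in Tfam cKO and 355 and 448 FPKM in WT, with overlapping groups. Of these 8, Cd3g lay lower in Tfam cKO and Thy1 narrowly higher without overlap. Keratinocytes and macrophages also use glycolysis, and the part of these cells and of T cells in the results below was not tested. In bulk RNA, more cells of a type and more RNA per cell cannot be told apart. Totals ranged from 338783 to 395707 FPKM, and the relative depth, recovered from Cufflinks intervals, from 0.884 to 1.56 times that of WT 1.

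Glycolytic enzyme genes and the glucose transporter gene Slc2a1 mostly stood higher in Tfam cKO, with no overlap between the groups and by small amounts, while pentose phosphate genes mostly overlapped between the groups. Both Tfam cKO libraries lay above both WT libraries for 16 of the 32 tested genes, and this held for 25.4% of all 10910 tested genes. They lay below for 1, Pfkfb3, against 9.75% of all tested genes. The 16 were made up of 12 of the 15 tested glycolysis enzymes, 2 of the 4 transporters, 1 of the 3 regulatory PFKFB enzymes, none of the 3 genes for lactate dehydrogenase and pyruvate dehydrogenase kinase, and 1 of the 7 pentose phosphate enzymes. In limma's test none of the 32 was past an adjusted p of 0.05, with adjusted p between 0.734 and 0.996. Over all genes that threshold was passed by 2 higher genes, 0.0183%, and 0 lower genes. At an unadjusted p below 0.05, 2 of the 32, Aldoc and Slc2a1, were higher and 0 were lower, where all genes gave 5.01% higher and 1.19% lower. With the replicate number as a block again none of the 32 passed the adjusted threshold, against 1.33% higher and 0.357% lower of all tested genes.

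The fold changes of the 32 genes were modest and mostly of one sign. On the scale of log2(FPKM + 1), fold changes ran from −0.09 for Pfkfb3 to 0.49 for Aldoc, with standard errors between 0.155 and 0.262. They were positive for 29 of 32, as for 65.2% of all tested genes. The median was 0.22 over the 32 and 0.07 over all tested genes. By branch, the median was 0.27 for the glycolysis enzymes, 0.17 for the transporters, 0.19 for lactate dehydrogenase and pyruvate dehydrogenase kinase, 0.03 for the pentose phosphate enzymes and −0.01 for the PFKFB enzymes. Other than that of the glycolysis enzymes, these medians moved by over 1.5 times when a single library was left out. That of the transporters was 0.07 without WT 1 and 0.31 without WT 2, and that of lactate dehydrogenase and pyruvate dehydrogenase kinase 0.40 without WT 1 and 0.11 without WT 2. When the libraries were rescaled to equal totals, the median became 0.10 over the 32 and −0.04 over all genes, whose median was thus 0.11 lower than as deposited. Both Tfam cKO libraries then lay above both WT libraries for 9 of the 32, against 14.3% of all genes. Fold changes were then positive for 23 of the 32, and for 43.2% of all genes. Those 9 were Gpi1, Pfkl, Aldoa, Aldoc, Gapdh, Pgk1, Pkm, Pfkfb4 and Slc2a1, and Pfkfb3 again lay below, against 19.8% of all genes. Between libraries of the same number the median difference was 0.23 (number 1) and 0.24 (number 2). With WT 2 left out the median was 0.17 where that of all genes was 0.01, and without WT 1 it was 0.24 where that of all genes was 0.13.

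**Figure D1:**
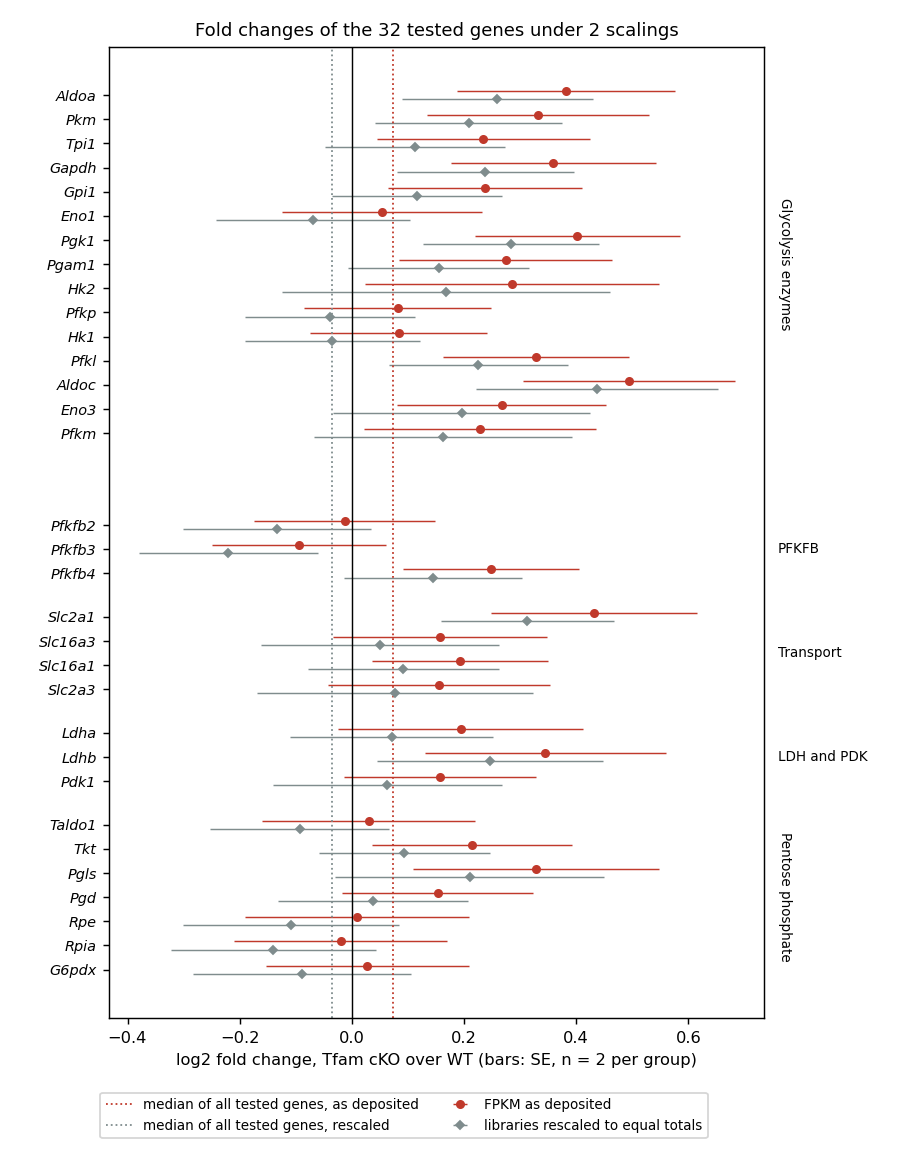
Log2 fold change of each tested gene, Tfam cKO over WT, with its standard error (n = 2 per group), from FPKM as deposited (red circles) and after rescaling the libraries to equal totals (grey diamonds). Dotted lines mark the median of all tested genes under each scaling, and as deposited the glycolysis enzymes lie to the right of it, up to 0.49 for Aldoc, other than Eno1 at 0.05.

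The promoters of 4 genes are shown, because Slc2a1 and Pgk1 were among the genes with the lowest p, Ldha encodes the main lactate dehydrogenase subunit, and Tkt stood for the pentose phosphate branch. Each sequence runs 5′ to 3′ on the gene's strand from 250 bases before to 50 bases after the RefSeq start, in GRCm38.p6, and capitals mark ACGTG or GCGTG on either strand, the core letters of hypoxia response elements, where hypoxia-inducible factors bind. The windows are chr4:119108495-119108794, chrX:106186850-106187149, chr7:46845554-46845853 and chr14:30548881-30549180, in the order of the lines below, all on the plus strand.
Slc2a1: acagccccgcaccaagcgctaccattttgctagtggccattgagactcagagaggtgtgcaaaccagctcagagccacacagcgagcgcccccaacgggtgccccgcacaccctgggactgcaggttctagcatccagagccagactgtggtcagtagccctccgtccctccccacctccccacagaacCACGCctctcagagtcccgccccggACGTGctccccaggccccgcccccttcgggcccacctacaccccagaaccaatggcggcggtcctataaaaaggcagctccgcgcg
Pgk1: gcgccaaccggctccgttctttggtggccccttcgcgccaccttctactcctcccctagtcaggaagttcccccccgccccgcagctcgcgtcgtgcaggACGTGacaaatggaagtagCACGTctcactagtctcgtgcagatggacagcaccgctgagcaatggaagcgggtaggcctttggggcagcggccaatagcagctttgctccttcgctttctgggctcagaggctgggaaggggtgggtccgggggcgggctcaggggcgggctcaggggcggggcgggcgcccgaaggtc
Ldha: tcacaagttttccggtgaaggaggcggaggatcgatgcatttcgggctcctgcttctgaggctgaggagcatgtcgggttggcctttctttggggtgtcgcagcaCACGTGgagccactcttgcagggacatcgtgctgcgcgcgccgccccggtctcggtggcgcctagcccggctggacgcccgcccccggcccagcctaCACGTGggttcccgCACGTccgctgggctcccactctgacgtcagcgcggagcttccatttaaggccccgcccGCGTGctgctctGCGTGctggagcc
Tkt: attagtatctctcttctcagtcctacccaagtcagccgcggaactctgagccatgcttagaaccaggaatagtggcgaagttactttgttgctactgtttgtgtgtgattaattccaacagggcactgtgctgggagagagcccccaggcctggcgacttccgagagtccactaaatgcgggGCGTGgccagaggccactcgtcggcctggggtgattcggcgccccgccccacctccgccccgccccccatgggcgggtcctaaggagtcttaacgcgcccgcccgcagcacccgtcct
Of these 4 genes only Ldha had another window, and the one shown was picked because it held more CACGTG. The Ldha window shown held CACGTG at 2 places, each of which contains ACGTG on both strands. The Ldha window not shown held GCGTG at 2 places and neither ACGTG nor CACGTG. RefSeq promoter windows were found for 33 of the 34 genes, 49 windows in all, and Slc2a3 had no entry. ACGTG or GCGTG, on either strand, occurred in 39 of these 49 windows, 79.6%, and in 43.8% of all 32851 windows of the same length. Windows of the same gene can overlap, as for Aldoa and Eno1, so the same match can be counted more than once. All 32851 windows came from 27025 genes, and shares by gene were not computed. The windows of these genes had a median of 60.3% G and C, against 52.7% over all windows, and among the 7600 windows of the whole table whose G and C content lay within the middle quartiles of these genes 60.7% held one of these letters. A match describes the letters in the window and no more.

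At glucose entry Slc2a1 stood clearly apart between the groups, while the hexokinases overlapped or were nearly equal. Slc2a1 encodes GLUT1, the main glucose transporter of many cell types. It was listed at 83.5 and 75.5 FPKM in Tfam cKO and at 64.0 and 53.6 FPKM in WT. Both Tfam cKO libraries stood above both WT libraries, and so did the Cufflinks 95% intervals, which cover error within a single library (log2 fold change 0.43 ± 0.18 SE, adjusted p = 0.80 in limma). Slc2a3, which encodes the high-affinity transporter GLUT3, was low, at 3.35 and 2.70 FPKM in Tfam cKO and 2.23 and 3.01 FPKM in WT. Slc2a1 made up 96.1% and 96.5% of the FPKM of both transporters in Tfam cKO and 96.6% and 94.7% in WT, with overlapping groups. Hk2, an inducible hexokinase bound to mitochondria, was listed at 39.0 and 56.5 FPKM in Tfam cKO and at 30.4 and 48.3 FPKM in WT. The libraries numbered 2 stood above those numbered 1 in both groups, and the groups overlapped (log2 fold change 0.29, limma adjusted p = 0.93). Hk1, the broadly expressed hexokinase, varied little, at 19.4 and 18.8 FPKM in Tfam cKO and 17.7 and 18.2 FPKM in WT, with Tfam cKO narrowly above, and its log2 fold change was −0.04 after rescaling to equal totals. Hk3, a hexokinase of myeloid cells, lay between 0.0905 and 0.251 FPKM. Hk2 took 66.4% and 74.9% of the hexokinase FPKM in Tfam cKO and 62.9% and 72.5% in WT.

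From glucose-6-phosphate to fructose bisphosphate, Gpi1 and Pfkl stood apart most clearly. Gpi1, glucose-6-phosphate isomerase, was listed at 84.8 and 82.7 FPKM in Tfam cKO and at 73.2 and 68.6 FPKM in WT. Its groups and its Cufflinks intervals were separate (log2 fold change 0.24 ± 0.17 SE, adjusted p = 0.90 in limma). Phosphofructokinase, the committed step of glycolysis, is built from liver, muscle and platelet type subunits. Pfkp, the platelet type, led in every library, at 39.4 and 40.7 FPKM in Tfam cKO and 39.4 and 36.3 FPKM in WT, the nearest libraries being almost equal. Pfkl, the liver type, was listed at 14.0 and 11.8 FPKM in Tfam cKO and at 10.3 and 9.79 FPKM in WT (log2 fold change 0.33 ± 0.17 SE, adjusted p = 0.85 in limma). Pfkm, the muscle type, was lower, at 3.78 and 2.88 FPKM in Tfam cKO and 3.17 and 2.24 FPKM in WT, with overlapping groups. The Pfkl share of the phosphofructokinase FPKM was 24.5% and 21.4% in Tfam cKO and 19.5% and 20.3% in WT, and the Pfkp share 68.9% and 73.4% in Tfam cKO and 74.5% and 75.1% in WT. A share is taken within a library and so does not move with its scaling. The groups did not overlap for either share, but with 2 libraries a group the exact two-sided permutation test cannot go below p = 0.333, the value both gave.

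PFKFB enzymes make and remove fructose 2,6-bisphosphate, the activator of phosphofructokinase, and none of the 3 genes passed the test. Pfkfb4 was listed at 11.3 and 10.3 FPKM in Tfam cKO and at 8.94 and 8.86 FPKM in WT (log2 fold change 0.25 ± 0.16 SE, adjusted p = 0.89 in limma). Pfkfb3, the member with the strongest kinase activity, was listed at 10.4 and 10.2 FPKM in Tfam cKO and at 11.0 and 11.2 FPKM in WT (log2 fold change −0.09 ± 0.16 SE, adjusted p = 0.96 in limma). Of the 32 tested genes it alone had its Tfam cKO values under its WT values. Pfkfb2 overlapped, at 11.1 and 12.6 FPKM in Tfam cKO and 12.2 and 11.7 FPKM in WT. As a share of the 3 genes, Pfkfb4 made up 34.4% and 31.0% in Tfam cKO and 27.9% and 27.9% in WT, and Pfkfb3 31.8% and 30.8% in Tfam cKO and 34.1% and 35.2% in WT (exact permutation p = 0.333 each, the smallest possible).

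**Figure D2:**
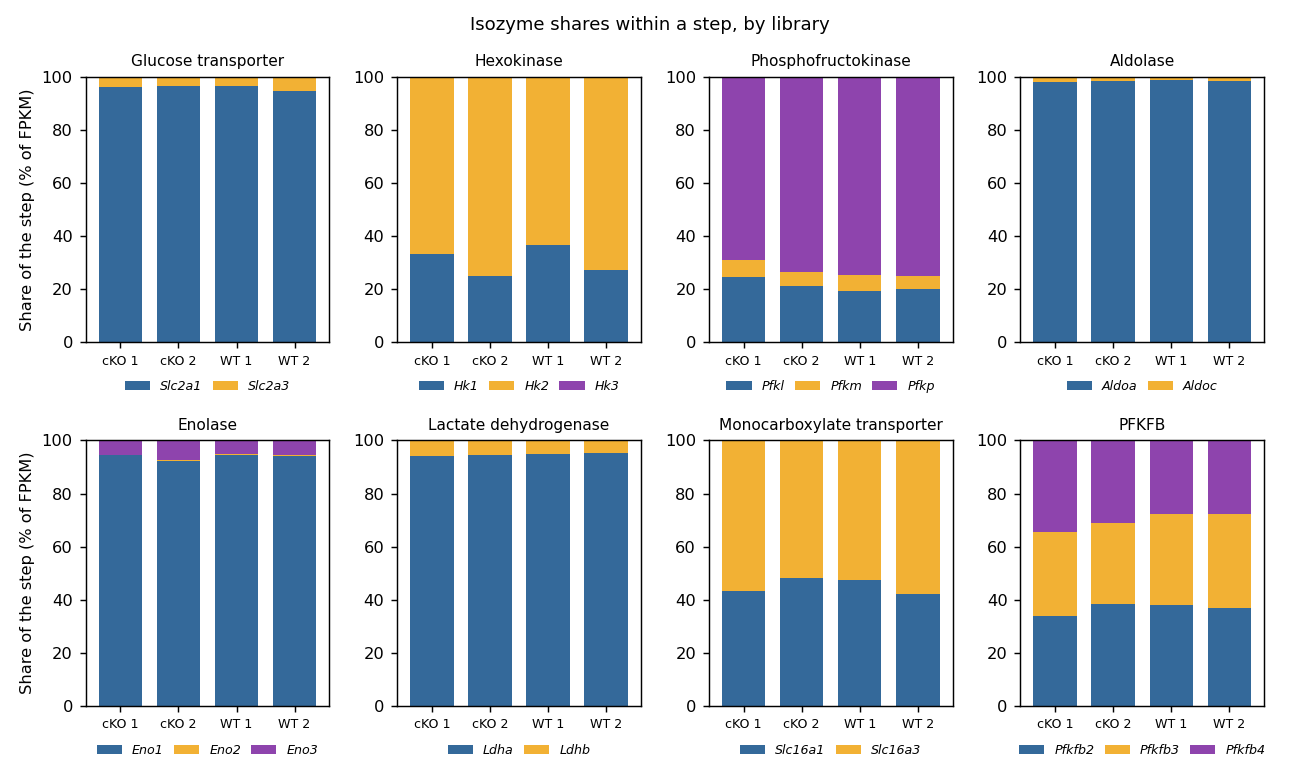
Share of each isozyme in the summed FPKM of its step (y axis, percent) in the 2 Tfam cKO libraries (left) and the 2 WT libraries (right). Pfkp, Hk2, Slc2a1, Aldoa, Eno1 and Ldha lead their steps in all 4 libraries, and the Pfkfb4 share is 34.4% and 31.0% in Tfam cKO against 27.9% in both WT libraries.

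From aldolase to pyruvate kinase, both Tfam cKO libraries as deposited lay above both WT libraries for every tested gene other than Eno1. After rescaling to equal totals, Tpi1, Pgam1 and Eno3 overlapped as well. Aldoa, the main aldolase, had the highest level of all 34 genes in every library. It was listed at 358 and 382 FPKM in Tfam cKO and at 294 and 274 FPKM in WT (log2 fold change 0.38 ± 0.19 SE, adjusted p = 0.85 in limma). By level it ranked 148th and 136th of all symbols in Tfam cKO and 166th and 167th in WT. Aldoc, an aldolase best known from brain, had the largest fold change of the 32 but a low level, at 6.86 and 5.39 FPKM in Tfam cKO and 3.56 and 4.55 FPKM in WT (log2 fold change 0.49 ± 0.19 SE, adjusted p = 0.73 in limma). Between the libraries numbered 1 the difference was 0.79, and between those numbered 2 it was 0.20. The values rested on an estimated 180.5 and 246 fragments in Tfam cKO and 109 and 185 in WT.

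Triose phosphate isomerase links the products of aldolase. Its gene Tpi1 was listed at 139.7 and 139.8 FPKM in Tfam cKO and at 131 and 108 FPKM in WT, the Tfam cKO libraries being nearly equal (log2 fold change 0.23 ± 0.19 SE, adjusted p = 0.91 in limma). Gapdh, the dehydrogenase that makes NADH in glycolysis and a common reference gene, was listed at 131 and 136 FPKM in Tfam cKO and at 111 and 97.1 FPKM in WT (log2 fold change 0.36 ± 0.18 SE, adjusted p = 0.85 in limma). Its groups and its Cufflinks intervals were separate. Pgk1, the X-linked phosphoglycerate kinase that makes the first ATP of the pathway, was listed at 67.1 and 56.3 FPKM in Tfam cKO and at 49.2 and 43.5 FPKM in WT (log2 fold change 0.40 ± 0.18 SE, adjusted p = 0.83 in limma). The libraries differed in sex-linked transcripts, with the Y-linked Ddx3y at 0 and 9.34 FPKM in Tfam cKO and 0 and 28.2 FPKM in WT. The X-linked Xist was at 39.0 and 45.6 FPKM in Tfam cKO and at 64.6 and 5.38 FPKM in WT. Between libraries of the same number Pgk1 differed by 0.44 (number 1) and by 0.36 (number 2). The libraries numbered 2 differed in Xist and Ddx3y, so this comparison does not take sex out, and the part of sex was not tested. Pgam1, phosphoglycerate mutase, was listed at 60.1 and 50.3 FPKM in Tfam cKO and at 50.1 and 40.9 FPKM in WT, with 50.3 in Tfam cKO 2 just above 50.1 in WT 1. Pkm, pyruvate kinase, was the second most abundant of the 34, at 332 and 283 FPKM in Tfam cKO and 252 and 235 FPKM in WT (log2 fold change 0.33 ± 0.20 SE, adjusted p = 0.88 in limma). The genes with many near-identical copies in the mouse genome, such as Gapdh, Pgk1 and Pgam1, are uncertain to the extent that the authors' counting divided fragments among copies. Gpi1, Aldoa, Gapdh, Pgk1, Pkm and Slc2a1 were the 6 of 32 genes whose Cufflinks intervals in both Tfam cKO libraries lay above those in both WT libraries. This held for 4.8% of all tested genes.

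**Figure D3:**
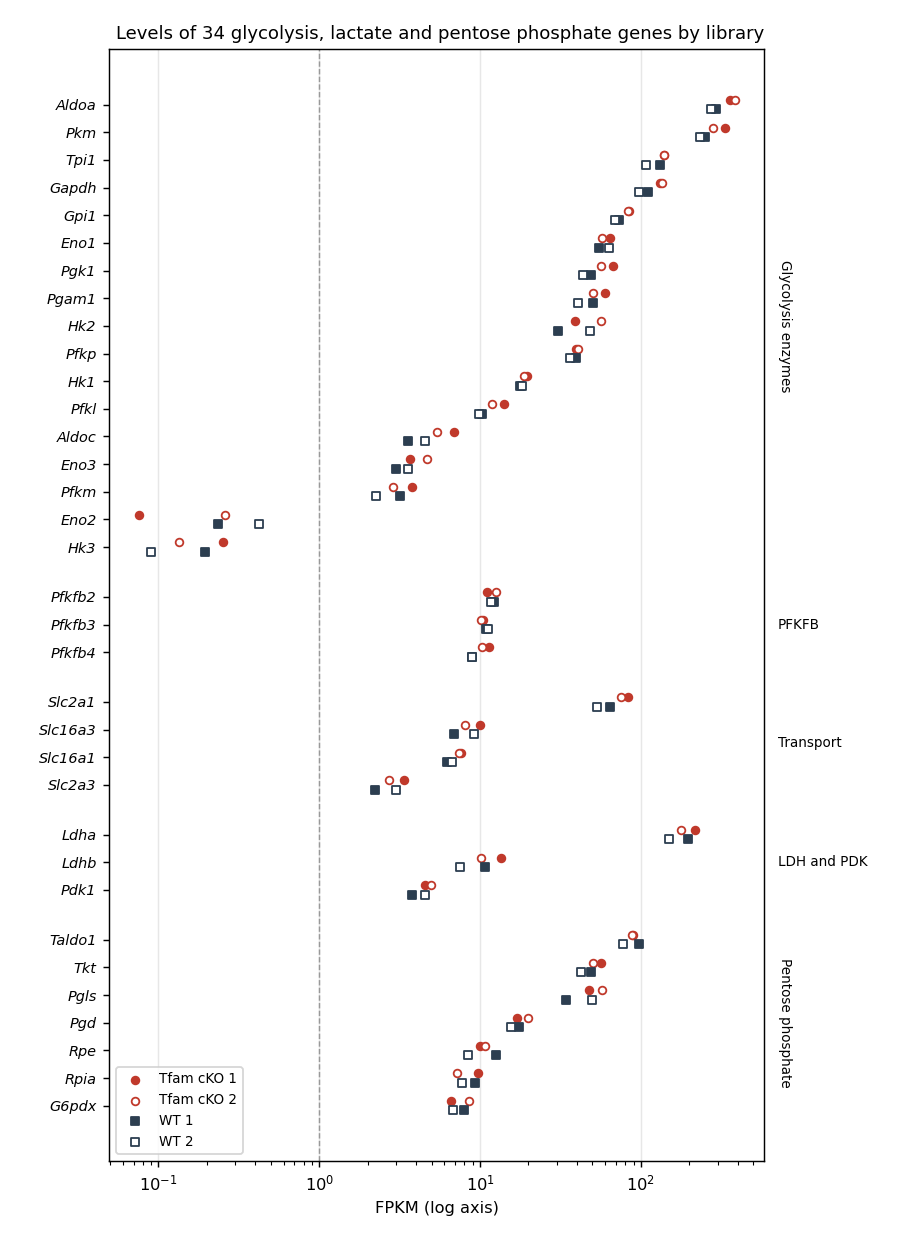
FPKM of all 34 genes on a log axis, with Tfam cKO libraries as red circles above WT libraries as dark squares, filled for library 1 and open for library 2. Levels run from under 1 FPKM for Hk3 and Eno2 (left of the dashed line at 1 FPKM) to between 274 and 382 FPKM for Aldoa.

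Enolase depended on how a near-identical copy was counted. Eno1, the main enolase, was listed at 64.1 and 57.7 FPKM in Tfam cKO and at 54.5 and 62.9 FPKM in WT, with overlapping groups (log2 fold change 0.05 ± 0.18 SE, adjusted p = 0.99 in limma). The tables also list Eno1b, a copy of Eno1, at 2 places, one overlapping Eno1 itself and the other on another chromosome. At the place of Eno1, Eno1b was listed at 38.7 and 39.5 FPKM in Tfam cKO and at 9.31 and 0.0238 FPKM in WT. At its other place it was listed at 59.1 and 53.8 FPKM in Tfam cKO and at 50.9 and 47.3 FPKM in WT. Fragments of the same sequence can be divided among these entries, so no entry alone gives the level of enolase mRNA. The entries at the place of Eno1, added up after their values had been seen, gave 103 and 97.2 FPKM in Tfam cKO and 63.9 and 62.9 FPKM in WT (log2 fold change 0.65 ± 0.17 SE, adjusted p = 0.54 in limma). With both places of Eno1b added, the sum was 162 and 151 FPKM in Tfam cKO and 115 and 110 FPKM in WT (log2 fold change 0.47 ± 0.18 SE, adjusted p = 0.73 in limma). Eno3, the muscle enolase, was listed at 3.65 and 4.67 FPKM in Tfam cKO and at 2.99 and 3.57 FPKM in WT. This low level rested on an estimated 49.3 and 113 fragments in Tfam cKO and 49.2 and 76.2 in WT. Eno2, the neuronal enolase, was listed at 0.0757 and 0.258 FPKM in Tfam cKO and 0.234 and 0.422 FPKM in WT, too low to be tested.

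**Figure D4:**
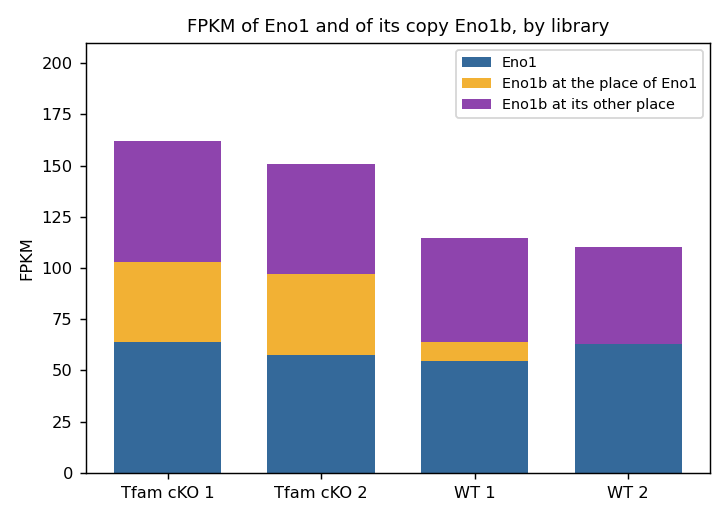
FPKM listed for Eno1, for Eno1b at the place of Eno1 and for Eno1b at its other place, stacked, in the 2 Tfam cKO libraries (left) and the 2 WT libraries (right). The Eno1 entry overlaps between the groups, while the stacks reach 162 and 151 FPKM in Tfam cKO and 115 and 110 FPKM in WT.

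Neither lactate dehydrogenase gene nor Pdk1 separated the groups, whereas the lactate transporter gene Slc16a1 did as deposited, though not after rescaling for totals. Ldha, the lactate dehydrogenase subunit that favours lactate formation, was the third most abundant of the 34 genes, at 217 and 178 FPKM in Tfam cKO and 197 and 149 FPKM in WT. Library 1 stood above library 2 in both groups and the groups overlapped (log2 fold change 0.19 ± 0.22 SE, adjusted p = 0.95 in limma). Ldhb, the subunit of tissues that take lactate up, was listed at 13.5 and 10.1 FPKM in Tfam cKO and at 10.8 and 7.51 FPKM in WT (log2 fold change 0.34 ± 0.21 SE, adjusted p = 0.88 in limma). The fold change was 0.58 without WT 1 and 0.11 without WT 2. The ratio of Ldha to Ldhb was 16.0 and 17.5 in Tfam cKO and 18.3 and 19.8 in WT, with Tfam cKO below WT (exact permutation p = 0.333, the smallest possible). Slc16a1, which encodes the lactate transporter MCT1, was listed at 7.64 and 7.43 FPKM in Tfam cKO and at 6.25 and 6.69 FPKM in WT, with separate groups (log2 fold change 0.19 ± 0.16 SE, adjusted p = 0.915 in limma). Slc16a3, which encodes MCT4, the lactate exporter of glycolytic cells, overlapped, at 9.99 and 8.04 FPKM in Tfam cKO and 6.89 and 9.13 FPKM in WT. Pdk1, a kinase that shuts off pyruvate dehydrogenase, was low, at 4.52 and 4.97 FPKM in Tfam cKO and 3.79 and 4.53 FPKM in WT, and its groups overlapped narrowly.

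Pentose phosphate genes mostly overlapped between the groups. G6pdx, the first and rate-limiting enzyme of the branch, was listed at 6.62 and 8.57 FPKM in Tfam cKO and at 7.97 and 6.83 FPKM in WT (log2 fold change 0.03 ± 0.18 SE, adjusted p = 0.996 in limma). Pgls, which opens the lactone made by that enzyme, was listed at 47.2 and 57.6 FPKM in Tfam cKO and at 34.4 and 49.6 FPKM in WT, again with library 2 above library 1 in both groups. Pgd, the other NADPH-forming dehydrogenase, was listed at 16.98 and 20.0 FPKM in Tfam cKO and at 17.3 and 15.6 FPKM in WT. In the non-oxidative arm, which exchanges sugar phosphates with glycolysis, Tkt, transketolase, was the one gene with separate groups, at 56.4 and 50.1 FPKM in Tfam cKO and 49.3 and 42.4 FPKM in WT (log2 fold change 0.21 ± 0.18 SE, adjusted p = 0.92 in limma). This separation ended after rescaling to equal totals. Taldo1, transaldolase, was listed at 89.1 and 87.6 FPKM in Tfam cKO and at 96.8 and 77.3 FPKM in WT, so that the WT libraries bracketed those of Tfam cKO. Rpia, the ribose phosphate isomerase, was at 9.66 and 7.23 FPKM in Tfam cKO and 9.36 and 7.71 FPKM in WT. Rpe, the epimerase, was at 10.04 and 10.7 FPKM in Tfam cKO and 12.5 and 8.46 FPKM in WT. The fold changes of G6pdx, Taldo1 and Rpe were below 0 after rescaling and Rpia was below 0 under both scalings, with −0.02 as deposited.

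Added up, the branches differed in their share of the total FPKM of a library. The 34 genes made up 0.498% and 0.503% of the total in Tfam cKO and 0.453% and 0.450% in WT. The 17 glycolysis enzymes made up 0.344% and 0.354% in Tfam cKO and 0.304% and 0.311% in WT, a ratio of means of 1.14. The transporters made up 0.0264% and 0.0249% in Tfam cKO and 0.0215% and 0.0214% in WT, a ratio of 1.20. In both comparisons the Tfam cKO libraries lay above the WT libraries (exact two-sided permutation p = 0.333, the smallest possible with 2 against 2). Pentose phosphate enzymes made up 0.0596% and 0.0643% in Tfam cKO and 0.0616% and 0.0614% in WT, with overlapping groups and a ratio of 1.01. Their summed FPKM as deposited did separate the groups, at 236 and 242 FPKM in Tfam cKO and 228 and 208 FPKM in WT. Ldha, Ldhb and Pdk1 together made up 0.0594% and 0.0513% in Tfam cKO and 0.0573% and 0.0475% in WT, and the PFKFB genes 0.00830% and 0.00879% in Tfam cKO and 0.00868% and 0.00938% in WT. The ratio of summed glycolysis enzyme FPKM to summed pentose phosphate FPKM was 5.77 and 5.50 in Tfam cKO and 4.93 and 5.06 in WT, with separate groups (exact permutation p = 0.333).

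**Figure D5:**
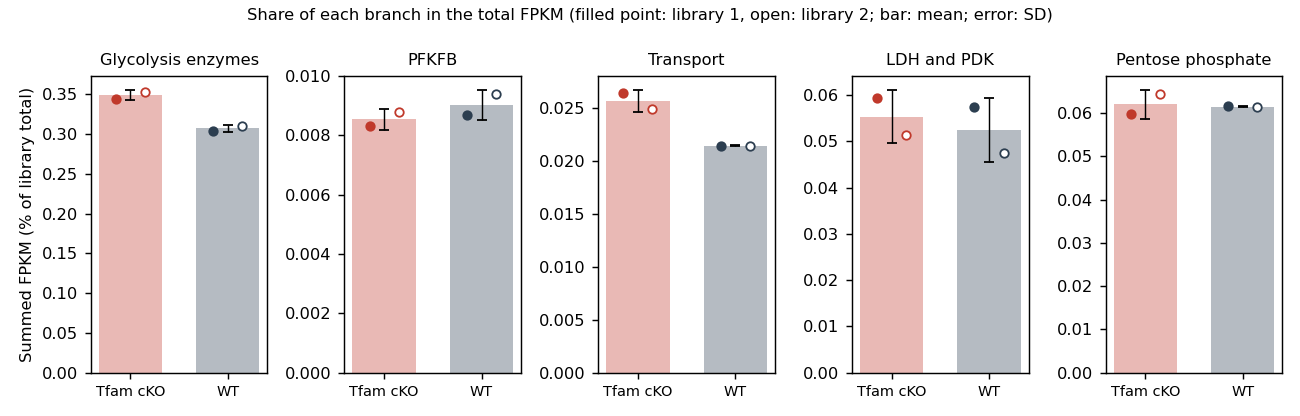
Summed FPKM of each branch as a percentage of the library total, with Tfam cKO left of WT, the mean as a bar, the SD as an error line (n = 2) and the libraries as points. Each panel has its own y axis from 0, and the groups are apart for the glycolysis enzymes (0.344% and 0.354% in Tfam cKO, 0.304% and 0.311% in WT) and the transporters.

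The order of the steps by level was much the same in both groups. Aldolase (376 ± 16.3 FPKM in Tfam cKO and 288 ± 13.7 in WT; SD, n = 2 each), pyruvate kinase (307 ± 34.7 in Tfam cKO and 243 ± 12.3 in WT) and lactate dehydrogenase (209 ± 30.2 in Tfam cKO and 182 ± 36.4 in WT) led, each apart from the next within its group. Triose phosphate isomerase, glyceraldehyde phosphate dehydrogenase and transaldolase followed, and the first 2 of these overlapped in WT. Hexokinase, enolase without the Eno1b entries, phosphoglycerate kinase, phosphofructokinase, phosphoglycerate mutase, transketolase and phosphogluconolactonase followed each other closely, and neighbours among them overlapped in both groups. The lowest were glucose-6-phosphate dehydrogenase, at 7.60 ± 1.38 FPKM in Tfam cKO and 7.40 ± 0.809 in WT, and Pdk1, at 4.75 ± 0.315 FPKM in Tfam cKO and 4.16 ± 0.523 in WT. Across the 32 tested genes the highest library was Tfam cKO 1 for 18, Tfam cKO 2 for 11, WT 1 for 2 and WT 2 for 1. The lowest library was WT 2 for 18, which was also the library with the lowest total FPKM and the lowest keratinocyte marker sum, and WT 1 for 10. Tfam cKO 1 had the highest total FPKM. These counts were not made over all tested genes, of which 65.2% had a positive fold change as deposited. They therefore do not set these genes apart from others.

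Other genes of the same pathways, 67 in all and 47 tested, gave none past an adjusted p of 0.05 in limma, and at an unadjusted p below 0.05 there were 3 higher, Eno1b, Pdk4 and Gpd2, and 0 lower, where all tested genes gave 5.01% higher and 1.19% lower. Both Tfam cKO libraries lay above both WT libraries for 10 of the 47, against 25.4% of all tested genes, and below for 2, against 9.75%. The median log2 fold change of the 47 was 0.10, where that of all tested genes was 0.07. Pdk4, a starvation-induced kinase of pyruvate dehydrogenase, was listed at 3.93 and 5.34 FPKM in Tfam cKO and at 2.12 and 2.28 FPKM in WT (log2 fold change 0.80 ± 0.19 SE, adjusted p = 0.44 in limma). Pdk3, another kinase of that family, was listed at 19.6 and 18.3 FPKM in Tfam cKO and at 28.3 and 20.3 FPKM in WT (log2 fold change −0.32 ± 0.20 SE, adjusted p = 0.88 in limma). Gpd2, the mitochondrial glycerol phosphate dehydrogenase that passes cytosolic reducing equivalents to the respiratory chain, was listed at 6.34 and 5.88 FPKM in Tfam cKO and at 4.68 and 3.92 FPKM in WT (log2 fold change 0.43 ± 0.17 SE, adjusted p = 0.765 in limma). Emb, which encodes embigin, a partner of monocarboxylate transporters, was listed at 21.8 and 25.2 FPKM in Tfam cKO and at 20.1 and 17.5 FPKM in WT. Ldhd, a D-lactate dehydrogenase, was listed at 1.18 and 1.46 FPKM in Tfam cKO and at 0.818 and 0.735 FPKM in WT. Shpk, sedoheptulokinase, which feeds the pentose phosphate branch, was listed at 1.11 and 1.35 FPKM in Tfam cKO and at 1.74 and 1.53 FPKM in WT.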

How the data were processed

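Per the labels' protocols, RNA of sorted Langerhans cells was taken up in Trizol and made into NEBNext Ultra libraries. The deposited FPKM values were computed by the authors with Cufflinks, with a 95% interval, per the file headers, and per the submitters' processing notes CASAVA was also used and the build was mm10. Which aligner and gene models were used is not given in the sources used here. Of the table positions, 11.2% overlapped the GRCm38 gene of that name, so their build is unresolved and they were not joined to sequence. Promoters came from RefSeq by symbol.

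Loci of a symbol were summed (301 symbols), and the 10910 symbols averaging 1 FPKM or more were fitted as log2(FPKM + 1) in limma 3.58.1 (R 4.3.3) by genotype alone, with variance trended on the mean and p-values adjusted by Benjamini-Hochberg over all tested genes. Fold changes of low genes are understated on this scale. Total read numbers are unknown. The width of an interval was turned into a number of fragments as if it held counting error alone, from 49.2 to 6242 for the 32 tested genes. For Gpi1 this number was 2700 in Tfam cKO 1 and 4615 in Tfam cKO 2, at similar FPKM, and so followed the relative depth of 0.884 and 1.56. For Aldoa it was 1925 and 2311, a smaller rise than that of the depth. An interval can thus hold error other than counting, and these numbers are estimates. Where these numbers were whole within 0.02 in all 4 libraries (74 genes), they gave the relative depth. The members and lists were chosen with earlier results of these data known. All 34 members are named, and of the other pathway genes up to 5 in each direction with the largest fold change among those with separate groups. Python 3.11.15 and matplotlib 3.10.9 made the figures. Alternatives covered scaling, filter, pseudocount, moderation, a replicate block, the highest locus and each library left out.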

Additional observations from a re-analysis of the deposited data

How the results depend on the processing

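None of the 32 tested genes passed an adjusted p of 0.05 under any of the alternatives run: 2 other scalings, 2 filters, 2 pseudocounts, 2 forms of moderation, the replicate number as a block, the highest locus alone and each library left out. Signs of small fold changes depended on the scaling. After quantile normalization and after rescaling to equal totals the log2 fold change was −0.0068 and −0.035 for Hk1, −0.018 and −0.039 for Pfkp, −0.060 and −0.069 for Eno1, −0.052 and −0.088 for G6pdx, −0.059 and −0.093 for Taldo1 and −0.080 and −0.11 for Rpe. With each library left out in turn it ranged from −0.038 to 0.61 for Hk2, −0.047 to 0.15 for Eno1, −0.098 to 0.073 for Pfkfb2, −0.0015 to 0.31 for Slc2a3, −0.024 to 0.34 for Slc16a3, −0.0071 to 0.40 for Ldha, −0.14 to 0.19 for G6pdx, −0.13 to 0.19 for Taldo1, −0.21 to 0.17 for Rpia and −0.25 to 0.27 for Rpe. Without a change of sign, it moved by over 1.5 times for Pfkl (0.22 to 0.44), Pfkm (0.045 to 0.41), Pfkp (0.024 to 0.14), Tpi1 (0.095 to 0.37), Pgam1 (0.13 to 0.42), Eno3 (0.12 to 0.41), Pkm (0.22 to 0.45), Ldhb (0.11 to 0.58), Pdk1 (0.054 to 0.26), Pgls (0.070 to 0.59), Pgd (0.042 to 0.26) and Tkt (0.11 to 0.32). The cause was not tested.

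The median over all 32 genes was 0.12 after quantile normalization, 0.10 after rescaling and 0.16 with a pseudocount of 5. After rescaling, the glycolysis enzyme median was 0.17, and both Tfam cKO libraries lay above both WT libraries for 9 of the 32 (14.3% of all genes). After quantile normalization they lay above for 11 (16.3% of all genes) and below for 2 (17.3%). The PFKFB median was −0.11 after quantile normalization and −0.13 after rescaling, and −0.077 to 0.073 with a library left out. With a library left out, the pentose phosphate median was −0.071 to 0.19, that of the transporters 0.074 to 0.31 and that of lactate dehydrogenase with pyruvate dehydrogenase kinase 0.11 to 0.40. Of all 32 genes, 22 to 23 then lay above without overlap (37.3% to 55.8% of all genes) and 1 to 3 below (19.0% to 31.96%). The ratio of summed shares was then 0.966 to 1.16 for Ldha, Ldhb and Pdk1 together and 0.970 to 1.05 for the pentose phosphate branch.

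The difference in isozyme share, Tfam cKO minus WT in percentage points, ranged with a library left out from −0.287 to 1.67 for Slc2a1, −7.65 to 1.63 for Hk1, −1.80 to 7.75 for Hk2, −0.122 to 1.29 for Pfkm, −0.464 to 0.0265 for Aldoa, −2.10 to 0.276 for Eno1, −1.89 to 3.40 for Slc16a1 and −3.62 to 0.768 for Pfkfb2. Adding Eno1b at the place of Eno1, chosen after seeing the data, made it 1.22 for Eno1 and −0.893 for Eno3, and adding both places made it 0.407 and −0.229.

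Over all genes, 2 were higher and 0 lower at an adjusted p below 0.05. The number higher was 0 without a filter, 1 with the filter at 5 FPKM and 1 with a pseudocount of 5, and the number lower was 1 without a mean trend and 2 with robust moderation. The numbers higher and lower were 63 and 19 without Tfam cKO 1, 38 and 40 without Tfam cKO 2, 12 and 4 without WT 1 and 13 and 3 without WT 2, in fits that assume the lone library of a group to vary like the other group. The replicate number as a block gave 145 higher and 39 lower. The labels do not say that a number marks a shared animal, batch or day. The Y-linked Ddx3y was at 0 FPKM in both libraries numbered 1, and at 9.34 FPKM in Tfam cKO 2 and 28.2 FPKM in WT 2. Xist was at 45.6 FPKM in Tfam cKO 2 and 5.38 FPKM in WT 2, so the libraries numbered 2 were not alike in sex-linked transcripts. Deviations from the group means correlated with r = 0.26 across genes between libraries of the same number. With 2 libraries a group, crossed numbers give the same size with the opposite sign, r = −0.26. None of the 32 passed under this block, where the lowest adjusted p was 0.255.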
